A study of Homo sapiens with 14 samples.

Results

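The transcripts described here are those of 8 enzymes of glycolysis and lactate formation, ALDOA, TPI1, GAPDH, PGK1, ENO1, PKM, LDHA and LDHB. Every A-to-G editing site of 14 HEK293T libraries that lay inside the hg19 span of 1 of these genes was taken, whatever its level. The lists held 168 such sites among 26172 distinct sites. A site is a genomic position at which RNA reads carried G in place of the reference A, and its level is the fraction of reads that did so, as the authors deposited it.

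Glycolysis splits and oxidises a 6-carbon sugar into pyruvate, and its enzymes are made from abundant transcripts in nearly all growing cells. ALDOA cleaves fructose-1,6-bisphosphate, TPI1 interconverts the triose phosphates, and GAPDH oxidises glyceraldehyde-3-phosphate while reducing NAD+. PGK1 then yields ATP, ENO1 makes phosphoenolpyruvate, PKM makes pyruvate and ATP, and LDHA and LDHB interconvert pyruvate and lactate. In A-to-I editing an adenosine deaminase turns adenosine in RNA into inosine, which is read as G during sequencing. None of the 8 transcripts was a named guide target, so their sites are off-target with respect to the guide names, and sites present without any editor cannot be set apart because no library without an editor was analysed here.

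HEK293T is a human embryonic kidney line. All groups were this line with 1 of 4 RNA editors and 1 guide, with 2 libraries per group. DECOR was used with a MALAT1 guide. dCas13d-ADAR was used with an EZH2 or an NT guide, and REPAIR.t1 and REPAIRv2 with an EZH2_A22 or an NT guide. REPAIR editors join a catalytically dead Cas13b to the deaminase domain of ADAR2, and REPAIRv2 is the version mutated for higher specificity. The labels spell out neither NT nor A22, nor do they give the make-up of REPAIR.t1, dCas13d-ADAR or DECOR. The series title names an evolved bacterial adenosine deaminase without tying it to an editor. DECOR libraries were read with 62 and 160 cycles and all other libraries with 25 and 97, so differences that come with DECOR cannot be told apart into editor, guide and cycles. Nothing in the labels says whether replicates were grown as separate cultures, and the p-values given below rest on a spread between libraries that may be technical. Site lists hold no expression, and the identity of the line was not checked by markers.

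The 8 spans covered 134303 bases of hg19. ALDOA lay at chr16:30064411-30081778, TPI1 at chr12:6976584-6980110, GAPDH at chr12:6643585-6647537 and PGK1 at chrX:77359666-77382324. ENO1 lay at chr1:8921059-8939151, PKM at chr15:72491370-72523727, LDHA at chr11:18415936-18429765 and LDHB at chr12:21788275-21810789. PKM, ENO1 and LDHB are on the minus strand and the other 5 genes on the plus strand, per RefSeq. The lists carry no strand, no read count and no exon or UTR annotation, so whether a site is exonic, intronic or in a UTR was not analysed here. TPI1 overlaps SPSB2, ENO1 overlaps MIR6728 and ALDOA overlaps LOC112694756 in RefSeq, and sites in such overlaps cannot be given to 1 gene. RefSeq also names 91 pseudogenes after the 8 genes, 65 of them after GAPDH, so reads may have been shared with near-identical copies.

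DECOR listed 49 glycolytic sites in each of its 2 libraries. dCas13d-ADAR listed 45 and 46 in its EZH2 libraries and 43 and 45 in its NT libraries. REPAIR.t1 listed 40 and 49 in its EZH2_A22 libraries and 38 and 49 in its NT libraries. REPAIRv2 listed 1 in each EZH2_A22 library, and 0 and 1 in its NT libraries. The REPAIR.t1 libraries spanned the whole range of the DECOR and dCas13d-ADAR libraries. Counting only sites at a level of at least 0.2, the mean number was 8.5 in DECOR, 21.75 in dCas13d-ADAR and 20.5 in REPAIR.t1, and the ratio of DECOR to REPAIR.t1 was 0.415, against 1.11 for all listed sites. The whole lists held 5516 and 5855 sites for DECOR, 5730 to 5834 for dCas13d-ADAR, 4356 to 4784 for REPAIR.t1 and 46 to 101 for REPAIRv2. Glycolytic sites made up 0.837% and 0.888% of the DECOR lists, 0.742% to 0.788% of the dCas13d-ADAR lists and 0.840% to 1.05% of the REPAIR.t1 lists. The mean share was 0.773% ± 0.0213 for dCas13d-ADAR and 0.946% ± 0.105 for REPAIR.t1 (SD, n = 4 each), and every REPAIR.t1 share was above every dCas13d-ADAR share. The ratio of dCas13d-ADAR to REPAIR.t1 was 1.02 by number and 0.818 by share. Library depth is unknown, and its part in these numbers was not tested.

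**Figure D1:**
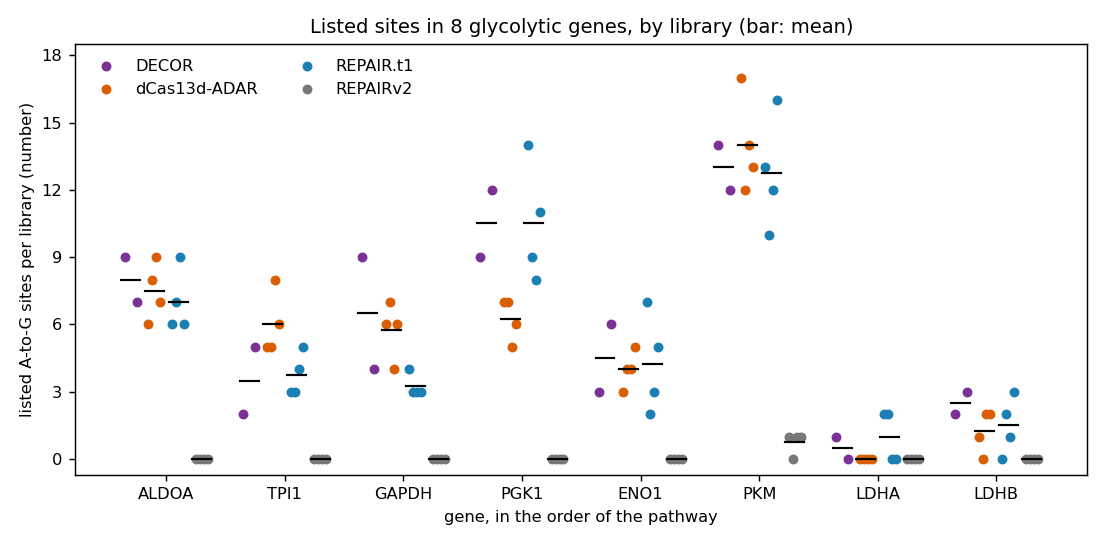
The number of listed A-to-G sites per library is plotted on the vertical axis for each of the 8 genes along the pathway, with 1 point per library and a bar at the mean of an editor. PKM had 10 to 17 sites in every DECOR, dCas13d-ADAR and REPAIR.t1 library, LDHA had at most 2 in any library, and only in PGK1 did all dCas13d-ADAR libraries lie below all REPAIR.t1 libraries.

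PKM held the most distinct sites, 40, followed by PGK1 with 35, ALDOA with 28, GAPDH and ENO1 with 18 each, TPI1 with 17, LDHB with 7 and LDHA with 5. Per kilobase of span the order differed, with 4.82 in TPI1, 4.55 in GAPDH, 1.61 in ALDOA, 1.54 in PGK1, 1.24 in PKM, 0.995 in ENO1, 0.362 in LDHA and 0.311 in LDHB. By span length, the short spans of TPI1 and GAPDH were the most densely listed, and the lactate dehydrogenases the least. Spans include introns, so this order is not one of density along the transcripts, which was not analysed here. Of the 168 sites, 79 appeared in 1 library of the 14, 33 in 2 and the rest in at least 3. The widest spread was 11 libraries, reached by 1 site in PKM.

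The levels of the glycolytic sites were low. Their median level was 0.137 and 0.140 in the DECOR libraries, against 0.211 and 0.208 for all listed sites of the same libraries. It averaged 0.197 ± 0.0179 over the dCas13d-ADAR libraries, against 0.266 ± 0.00249 for all sites (SD, n = 4 libraries). In REPAIR.t1 it averaged 0.188 ± 0.0111, against 0.256 ± 0.0070 for all sites (SD, n = 4 libraries). The glycolytic median was below the median of the whole list in each of these 10 libraries. A level of at least 0.5 was reached by 0 to 3 glycolytic sites per dCas13d-ADAR library, by 0 or 1 per REPAIR.t1 library and by none in DECOR. Coverage per site is unknown, and its part in these levels was not tested.

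**Figure D2:**
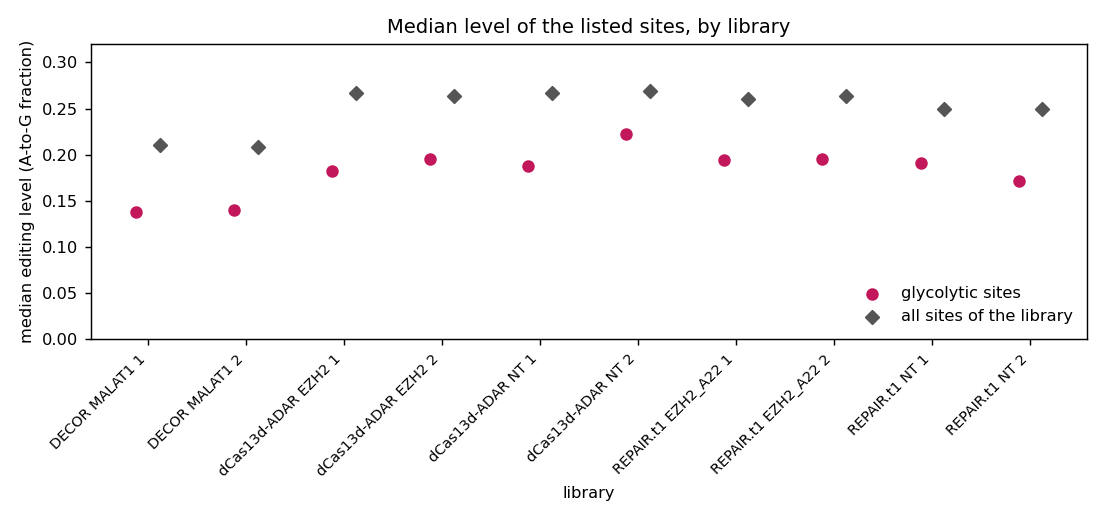
The median editing level (A-to-G fraction, vertical axis) of the glycolytic sites and of all listed sites is shown for each DECOR, dCas13d-ADAR and REPAIR.t1 library. The glycolytic median, 0.137 to 0.222, lay below that of all sites, 0.208 to 0.269, in each library.

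Sites in these transcripts recurred between libraries. In DECOR, 24 of 74 glycolytic sites (32.4%) were in both libraries, against 22.2% of all its sites. In dCas13d-ADAR, 24 of 76 (31.6%) were in all 4 libraries, against 13.5% of all its sites. In REPAIR.t1, 22 of 72 (30.6%) were in all 4, against 9.89% of all its sites. Between libraries of 1 group, the shorter list shared 49.0% of its glycolytic sites with the longer in DECOR, against 37.5% for all sites. This share was 73.3% with EZH2 and 67.4% with NT in dCas13d-ADAR, against 49.7% and 51.1% for all sites, and 82.5% with EZH2_A22 and 73.7% with NT in REPAIR.t1, against 44.9% and 45.7%. A site can be missing from a list because it was unedited, below the authors' threshold or thinly covered, and these were not told apart.

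Across dCas13d-ADAR and REPAIR.t1, 50 of 98 glycolytic sites (51.0%) were listed by both editors, against 33.8% of all sites of these editors. All 8 libraries listed 15 of the 98 (15.3%), against 3.54% of all sites. PKM held 7 of these 15, GAPDH, TPI1 and ALDOA 2 each, and ENO1 and PGK1 1 each. LDHA and LDHB held none.

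ALDOA, which makes the triose phosphates, had 7 and 9 sites in the DECOR libraries, 6 to 9 in the dCas13d-ADAR libraries and 6 to 9 in the REPAIR.t1 libraries. Position 30081316 had levels of 0.125, 0.254, 0.295 and 0.373 in dCas13d-ADAR, against 0.119, 0.255, 0.286 and 0.292 in REPAIR.t1. The lowest level of both editors was that of replicate 2 with the EZH2 or EZH2_A22 guide. Position 30078783 had 0.196, 0.241, 0.267 and 0.295 in dCas13d-ADAR, against 0.0870, 0.130, 0.140 and 0.231 in REPAIR.t1, and the editors overlapped through 1 REPAIR.t1 NT library. Position 30081519 was in all 4 dCas13d-ADAR libraries, at 0.111 to 0.162, and in 3 REPAIR.t1 libraries, at 0.1 to 0.167. The DECOR sites lay at other positions. Among those in both libraries, the highest was 30081466, at 0.231 and 0.361, followed by 30080229 at 0.204 and 0.170.

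TPI1, the triose phosphate isomerase, had 2 and 5 sites in DECOR, 5 to 8 in dCas13d-ADAR and 3 to 5 in REPAIR.t1. Its strongest site shared by these last editors was 6979841, at 0.390, 0.392, 0.403 and 0.459 in dCas13d-ADAR, against 0.268, 0.295, 0.324 and 0.400 in REPAIR.t1. Only the REPAIR.t1 library at 0.400 reached into the dCas13d-ADAR range. At 6979904 the levels were 0.129, 0.188, 0.194 and 0.225 in dCas13d-ADAR, against 0.138, 0.139, 0.143 and 0.184 in REPAIR.t1, and the editors overlapped. Positions 6978138 and 6978321 were listed in every dCas13d-ADAR library, at 0.128 to 0.182 and 0.123 to 0.196, and in no REPAIR.t1 library. DECOR listed 1 TPI1 site in both libraries, 6978911, at 0.140 and 0.0870.

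GAPDH, the dehydrogenase of the pathway, had 4 and 9 sites in DECOR, 4 to 7 in dCas13d-ADAR and 3 or 4 in REPAIR.t1. Position 6647096, 441 bases before the 3′ end of the span, had levels of 0.291, 0.302, 0.365 and 0.393 in dCas13d-ADAR, against 0.0952, 0.190, 0.205 and 0.213 in REPAIR.t1. Every dCas13d-ADAR library was above every REPAIR.t1 library. Position 6647015 had 0.309, 0.333, 0.375 and 0.410 in dCas13d-ADAR, against 0.182, 0.214, 0.286 and 0.309 in REPAIR.t1, where the highest REPAIR.t1 library reached the lowest dCas13d-ADAR library. Position 6647329 was in all 4 dCas13d-ADAR libraries, at 0.157 to 0.277, and in 3 REPAIR.t1 libraries, at 0.111 to 0.170. In DECOR, 6646855 stood at 0.193 and 0.323, 6645854 at 0.180 and 0.240, and 6647125 at 0.0980 and 0.189.

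PGK1, the first ATP-yielding enzyme of the pathway, had 9 and 12 sites in DECOR. It had 5, 6, 7 and 7 sites in the dCas13d-ADAR libraries, against 8, 9, 11 and 14 in the REPAIR.t1 libraries. It was the 1 gene of the 8 in which the numbers of these editors did not overlap. For scale, among 345 windows of 20 kb that held at least 10 sites, a background chosen after seeing the data, all dCas13d-ADAR libraries lay below all REPAIR.t1 libraries in 3.77% and above them in 24.3%. Neighbouring positions 77381708 and 77381712 were listed in every REPAIR.t1 library, at 0.214 to 0.421 and 0.2 to 0.294, and in no dCas13d-ADAR library. Position 77369373 was the 1 PGK1 site in all 8 libraries, at 0.167, 0.257, 0.294 and 0.324 in dCas13d-ADAR, against 0.136, 0.2, 0.237 and 0.270 in REPAIR.t1. The ranges of the editors overlapped there, and DECOR listed the site in its replicate 2 at 0.175.

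ENO1, the enolase, had 3 and 6 sites in DECOR, 3 to 5 in dCas13d-ADAR and 2 to 7 in REPAIR.t1. Position 8921423 had 0.245, 0.267, 0.295 and 0.357 in dCas13d-ADAR, against 0.236, 0.283, 0.319 and 0.320 in REPAIR.t1. It was the site at which the editors' means lay closest among the 15 shared by all libraries, with 0.291 in dCas13d-ADAR and 0.290 in REPAIR.t1. Position 8921251 was in all 4 dCas13d-ADAR libraries, at 0.169 to 0.333, and in 3 REPAIR.t1 libraries, at 0.204 to 0.233. DECOR listed 8930540 at 0.185 and 0.121 and 8921487 at 0.138 and 0.121.

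PKM, the pyruvate kinase, whose transcripts carry 1 of a pair of mutually exclusive exons, had the most sites of the 8 genes. It had 12 and 14 sites in DECOR, 12 to 17 in dCas13d-ADAR and 10 to 16 in REPAIR.t1. Its site 72491603 was found in 11 libraries of the 14. Levels there were 0.486, 0.600, 0.651 and 0.659 in dCas13d-ADAR, 0.382, 0.411, 0.463 and 0.489 in REPAIR.t1, and 0.138 and 0.150 with EZH2_A22 and 0.0930 in replicate 1 with NT in REPAIRv2. It was the only site of the 168 that any REPAIRv2 library listed, and REPAIRv2 listed 205 (0.783%) of all 26172 sites. The dCas13d-ADAR library at 0.486 lay just below the highest REPAIR.t1 library, and the 3 REPAIRv2 levels lay below all of these. Neighbouring positions were listed too. Position 72491607 had 0.222 to 0.333 in 3 dCas13d-ADAR libraries, against 0.176 to 0.326 in the 4 of REPAIR.t1, and 72491610 had 0.119 and 0.150 in 2 dCas13d-ADAR libraries, against 0.111 to 0.196 in the 4 of REPAIR.t1.

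Other PKM sites reached similar levels. Position 72502752, 11382 bases from the 3′ end of the span, had 0.382, 0.462, 0.550 and 0.600 in dCas13d-ADAR, against 0.308, 0.439, 0.500 and 0.525 in REPAIR.t1, with overlapping ranges. Position 72491545 had 0.375, 0.432, 0.490 and 0.500 in dCas13d-ADAR, against 0.290, 0.353, 0.354 and 0.361 in REPAIR.t1, without overlap, and 0.122 in replicate 2 of DECOR. At 72491525 the levels were 0.326 to 0.425 in dCas13d-ADAR, against 0.214 to 0.348 in REPAIR.t1. In DECOR the strongest PKM sites found in both libraries were 72491669 at 0.328 and 0.220, 72494818 at 0.315 and 0.204, and 72492907 at 0.262 and 0.236.

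LDHA, the muscle-type lactate dehydrogenase subunit, was nearly empty. It had 1 site in replicate 1 of DECOR, 18424483 at 0.111, and none in any dCas13d-ADAR library. REPAIR.t1 listed no site with the EZH2_A22 guide and 2 in each NT library, of which 18422395 had a level of 0.140 in replicate 1, and no position was shared between the NT libraries. LDHB, the heart-type subunit, had 2 and 3 sites in DECOR, 0 to 2 in dCas13d-ADAR and 0 to 3 in REPAIR.t1. Its site 21799908 was found in 6 libraries, at 0.127 in replicate 2 of DECOR, 0.103 and 0.125 in dCas13d-ADAR with EZH2, and 0.114, 0.114 and 0.135 in REPAIR.t1. LDHB site 21795048 was in both DECOR libraries, at 0.141 and 0.155.

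To compare dCas13d-ADAR with REPAIR.t1 at the same positions, levels were set on a log2 odds scale and fitted with limma over the 609 sites of all genes that all 8 libraries listed. Of the 15 glycolytic sites, 1 was higher in dCas13d-ADAR at an adjusted p below 0.05 in limma (6.67%), against 6.57% of all 609 sites, and none was lower, against 0.657%. In either direction 7.22% of all sites were called, and 4 of the 15 (26.7%) had an unadjusted p under 0.05, against 25.9% of all sites. The share of glycolytic sites called was close to that of all sites. The 1 site was GAPDH 6647096, at 0.338 ± 0.0494 in dCas13d-ADAR and 0.176 ± 0.0545 in REPAIR.t1 (SD, n = 4 libraries each). Its log2 odds difference was 1.27 ± 0.36 (SE), with a limma adjusted p of 0.0187. The call was lost when any 1 of 5 libraries was left out, with limma adjusted p of 0.155 without REPAIR.t1 NT replicate 2, 0.0574 without REPAIR.t1 EZH2_A22 replicate 2, 0.0787 and 0.0997 without dCas13d-ADAR NT replicate 1 and 2, and 0.0542 without dCas13d-ADAR EZH2 replicate 1. The log2 odds difference without these 5 libraries in turn was 0.97, 1.33, 1.32, 1.06 and 1.26.

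The mean log2 odds were higher in dCas13d-ADAR at all 15 sites, against 74.2% of all 609. This held at 12 of 15 sites without dCas13d-ADAR NT replicate 2, at 13 of 15 without dCas13d-ADAR EZH2 replicate 1 and at 15 of 21 in the EZH2 libraries alone. The median difference was 0.39 log2 odds for the 15 sites, against 0.34 for all sites. Averaged over the 15 sites, the level was 0.342 ± 0.0212 in dCas13d-ADAR and 0.269 ± 0.0203 in REPAIR.t1 (SD, n = 4 libraries each), and over all 609 sites it was 0.370 and 0.320. All dCas13d-ADAR libraries were above all REPAIR.t1 libraries at 2 of the 15 sites (13.3%), GAPDH 6647096 and PKM 72491545, against 11.5% of all sites, and below them at none, against 1.81%. At PKM 72491545 the level was 0.449 ± 0.0579 in dCas13d-ADAR and 0.340 ± 0.0331 in REPAIR.t1, with a limma adjusted p of 0.226. PKM 72491603 averaged 0.599 ± 0.0798 in dCas13d-ADAR and 0.436 ± 0.0487 in REPAIR.t1, with a limma adjusted p of 0.0982, which became 0.0485 without dCas13d-ADAR EZH2 replicate 2. For ALDOA 30078783 the limma adjusted p was 0.0946, and for GAPDH 6647015 it was 0.176. The other 10 sites had limma adjusted p between 0.321 and 0.994.

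**Figure D3:**
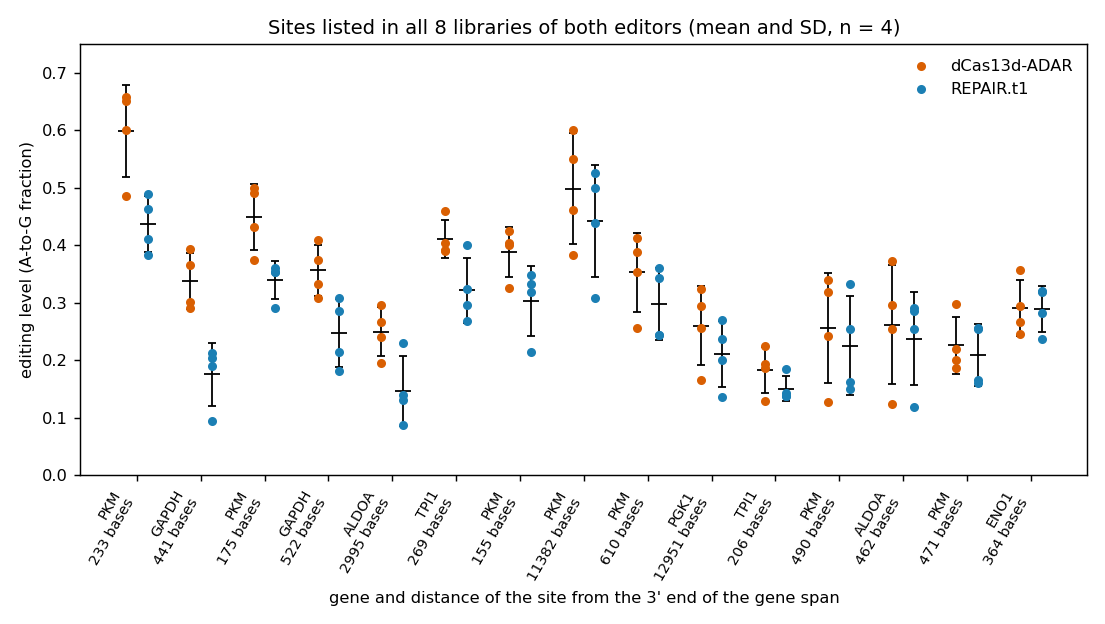
Editing levels (A-to-G fraction, vertical axis) of the 15 glycolytic sites listed in all 8 libraries are shown by gene and distance from the 3′ end of the span, with 1 point per library and the mean and SD of 4 libraries for dCas13d-ADAR and for REPAIR.t1. The means lie together at the ENO1 site, 0.291 in dCas13d-ADAR against 0.290 in REPAIR.t1, and the libraries stand apart at GAPDH 6647096, 0.338 in dCas13d-ADAR against 0.176 in REPAIR.t1.

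Of the 98 sites, 50 (51%) were listed by both editors, against 33.8% of all sites of these editors. Another 26 of the 98 were listed by dCas13d-ADAR and not REPAIR.t1, and 22 by REPAIR.t1 and not dCas13d-ADAR, mostly in some libraries of the editor. Only 4 (4.08%) were in all 4 dCas13d-ADAR libraries and in no REPAIR.t1 library, against 1.04% of all sites. They were TPI1 6978138 and 6978321, PKM 72494933 at 0.1, 0.119, 0.125 and 0.216, and PKM 72502800 at 0.213, 0.229, 0.304 and 0.349. The reverse was found for 2 sites (2.04%), against 0.459% of all sites, and these were PGK1 77381708 and 77381712. PGK1 77381708 had the highest level in any library among these 6 sites, 0.421. Both shares take in that glycolytic sites were in all 4 libraries of an editor more often than all sites were. Among sites in all 4 dCas13d-ADAR libraries, no REPAIR.t1 library listed 4 of 24 glycolytic sites, against 178 of 1665 sites. Among those in all 4 REPAIR.t1 libraries, no dCas13d-ADAR library listed 2 of 22, against 79 of 1053.

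The guide comparisons asked whether levels differed between an EZH2 guide and NT within 1 editor. In dCas13d-ADAR, limma called none of 24 glycolytic sites for EZH2 against NT and none of 1665 sites overall (0%), while 87 of all sites (5.23%) and 0 of the 24 had an unadjusted p under 0.05. The smallest limma adjusted p among the 24 was 0.934, for ENO1 8921251, with 0.323 in EZH2 and 0.197 in NT libraries. EZH2 libraries lay above NT libraries at 3 sites (12.5%), against 15.1% of all sites, and below at 3 (12.5%), against 16.6%. The mean log2 odds were higher with EZH2 at 12 of the 24 (50%) and at 50% of all sites. In REPAIR.t1, limma called none of 22 sites for EZH2_A22 against NT and none of 1053 overall (0%), while 61 of all sites (5.79%) and 1 of the 22 had an unadjusted p under 0.05. That site was PKM 72491860, with 0.294 in EZH2_A22 and 0.157 in NT libraries and a limma adjusted p of 0.837. EZH2_A22 libraries lay above NT libraries at 5 sites (22.7%), against 17.4% of all sites, and below at none, against 13%. The mean log2 odds were higher with EZH2_A22 at 13 of the 22 (59.1%), against 54.9% of all sites. With 2 libraries a side, these counts do not show that levels were alike. The difference between the editors in the guide effect passed at none of the 15 shared glycolytic sites and at none of the 609 sites in limma, with 0 and 41 of them at an unadjusted p under 0.05.

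DECOR listed other positions of the same transcripts. Of its 74 glycolytic sites, 4 (5.41%) were listed by another editor as well, against 3.75% of all DECOR sites. These were PKM 72491545, PGK1 77369373 and 77373613, and LDHB 21799908. None of the 24 sites found in both DECOR libraries was listed by another editor, against 4.6% of all such sites. Of the 168 sites, 70 (41.7%) were DECOR's alone, against 34.2% of all sites, 94 (56.0%) belonged to the other 3 editors alone, against 64.5%, and 4 (2.38%) were in both sets, against 1.33%. The median distance of a glycolytic DECOR site to the nearest site of another editor was 57 bases, against 160 for all DECOR sites. Within 50 bases lay 34 of 74 (45.9%), the 4 shared sites included, against 32.3% of all DECOR sites, and this difference was not tested. In 6 cases the distance was 2 to 5 bases, in GAPDH, ENO1, PKM and PGK1.

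Many of the glycolytic sites lay near the 3′ ends of the gene spans. The last 1000 bases of each span held 92 of the 168 sites (54.8%). These windows made up 5.96% of the span length with introns counted, and their share of the transcript length was not analysed here. The same share over all sites of the lists was not counted, so whether this position is particular to these genes was not tested. By editor, the window held 31 of 74 sites (41.9%) in DECOR, 52 of 76 (68.4%) in dCas13d-ADAR and 47 of 72 (65.3%) in REPAIR.t1. The median distance to the 3′ end was 1543 bases in DECOR, 508.5 in dCas13d-ADAR and 619 in REPAIR.t1. By gene, the window held 15 of 18 sites in GAPDH, 12 of 17 in TPI1, 22 of 40 in PKM, 15 of 28 in ALDOA, 9 of 18 in ENO1 and 16 of 35 in PGK1, but 2 of 7 in LDHB and 1 of 5 in LDHA. DECOR had 3 of its 16 PGK1 sites and 4 of its 12 ALDOA sites there. The libraries were made from polyadenylated RNA, spans include introns, and coverage along the transcripts is unknown, so its part in these positions was not tested.

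**Figure D4:**
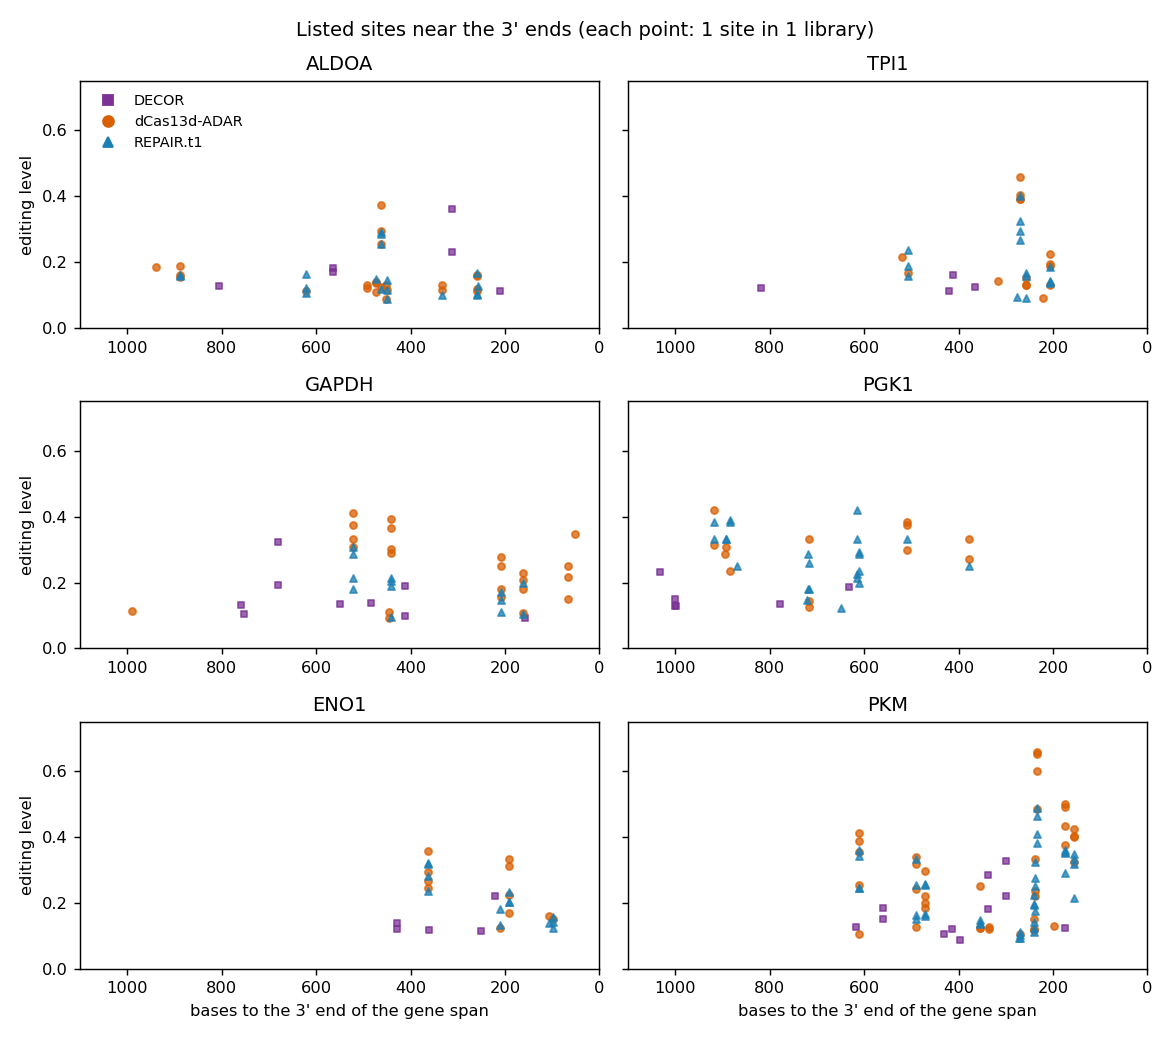
For ALDOA, TPI1, GAPDH, PGK1, ENO1 and PKM, each listed site near the end of the span is drawn once per library at its distance in bases from the 3′ end of the gene (horizontal axis, 3′ end at the right) and its editing level (A-to-G fraction, vertical axis), with a colour and marker per editor. DECOR sites mostly stand at distances of their own, and the PKM panel holds the highest level, 0.659 in dCas13d-ADAR.

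Sites also lay close together within libraries. Another listed site of the same library lay within 50 bases for 26.5% and 30.6% of the glycolytic sites in DECOR, for 31.1% to 55.6% in dCas13d-ADAR and for 42.5% to 51.0% in REPAIR.t1. Over all sites the mean share was 32.7% in DECOR, 25.4% in dCas13d-ADAR and 21.5% in REPAIR.t1. In every dCas13d-ADAR and REPAIR.t1 library the glycolytic share was above the mean over all sites, and in both DECOR libraries it was below. With the sites of all libraries pooled, adjacent bases were listed in 5 places, 2 of them in PKM and 1 each in ENO1, ALDOA and PGK1. No library listed both bases of the ENO1 pair. Position 8925526 was listed only in REPAIR.t1 NT replicate 1, and 8925527 only in dCas13d-ADAR EZH2 replicate 2.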

How the data were processed

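Polyadenylated RNA of HEK293T cells was sequenced from directional libraries, per the labels' protocols. The authors deposited 1 list per library, giving chromosome, position and A-to-G rate as a fraction, per the file headers. The submitters' processing notes name cutadapt, STAR 2.6.1b and the builds hg19 and GRCh37, whereas the caller and any threshold on coverage were not given in the sources used here. The lowest listed level was 0.0597. The lists hold no reads, so neither the counting error of the levels nor the depth can be stated.

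Sites were assigned by position to 8 spans (Python 3.11.15, pandas 2.3.3, numpy 2.4.6, matplotlib 3.10.9). Gene strands, overlaps and pseudogenes came from a RefSeq table of another build, GRCh38, used for names and neighbours only. A read-count test had been planned first, with limma as the alternative for lists without reads. Levels, with 0.01 added to the level and its complement, were tested as log2 odds in limma 3.58.1 (R 4.3.3). The fit took all sites listed by every library compared, with the guide as covariate between editors. EZH2 and EZH2_A22 were treated as the same guide there and in the test of the guide effect between editors. Benjamini-Hochberg adjustment was made over the fitted sites, with a threshold of 0.05. The fit was also run on simulated normal values with a common spread for all sites and no listing threshold. Its outcome is not given here, and the simulation differs from these lists in both respects. Named sites were those listed by all 4 libraries of dCas13d-ADAR or REPAIR.t1, by both DECOR libraries or by any REPAIRv2 library, and per gene and editor the highest in the most libraries, those in the most libraries first beyond 30. PGK1 77373613 falls outside this rule and was named after its values were seen, since it belongs to a count of 4. Genes and rules were chosen with earlier results of these data known. Alternatives changed the scale, the value added, the minimum level, the covariate, missing sites, the libraries and the block. Other glycolytic genes were not analysed here.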

Additional observations from a re-analysis of the deposited data

Results flagged for a closer look

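The 15 glycolytic sites in all 8 libraries were searched for guide differences that opposed each other without overlap in the 2 editors. Only PKM 72491841 had such levels, and the share with this pattern among all 609 sites was not counted. In dCas13d-ADAR it had levels of 0.186 and 0.2 with EZH2, against 0.298 and 0.220 with NT. In REPAIR.t1 it had 0.255 and 0.256 with EZH2_A22, against 0.160 and 0.167 with NT. Every EZH2 library was below every NT library in dCas13d-ADAR, and every EZH2_A22 library above every NT library in REPAIR.t1. The mean difference was -0.0659 in dCas13d-ADAR and 0.0925 in REPAIR.t1, and these effects differed by -0.158. The test of that difference in limma gave -1.30 log2 odds with an unadjusted p of 0.0705 and an adjusted p of 0.795 over 609 sites, so it did not pass the threshold.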

How the results depend on the processing

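Between dCas13d-ADAR and REPAIR.t1, the count of glycolytic sites called was 1. It was 0 with the untransformed level and in the NT or the EZH2 libraries alone. It was also 0 with a minimum level of 0.1 or of 0.2, where GAPDH 6647096 was not tested because REPAIR.t1 NT replicate 2 was at 0.0952. Leaving out 1 library gave 0 to 2. It was 1 with 0.001 added, with sites missing from at most 1 library, with a replicate block and without the guide covariate. GAPDH 6647096 had limma adjusted p from 0.0175 to 0.508 over its alternatives, with 0.0516 on the untransformed level, 0.135 in NT and 0.508 in EZH2 libraries alone, and its direction was the same in all 15. NT or EZH2 libraries alone are fewer libraries, and for the untransformed level the cause was not tested. Guide comparisons gave 0 calls under every alternative, the replicate block included. Over the 15 glycolytic sites of the dCas13d-ADAR and REPAIR.t1 comparison, 236 of 245 values under an alternative stayed on the same side of the threshold, 8 no longer passed and 1 newly passed, and 232 kept the sign. Between groups, the deviations of libraries with the same replicate number had correlations from -0.0146 to 0.0553. With the counting error of the levels unknown, these values cannot show whether such libraries belonged together.

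At a minimum level of 0.2, sites per library averaged 8.5 in DECOR, 21.75 in dCas13d-ADAR, 20.5 in REPAIR.t1 and 0 in REPAIRv2, and the sites in all 4 dCas13d-ADAR libraries and in no REPAIR.t1 library numbered 1. Sites in both libraries of the group numbered 24 in DECOR. The ratio of DECOR to REPAIR.t1 was 1.11 by number, 0.415 at a minimum level of 0.2, 0.787 for sites in both libraries and 0.912 by share of the list. That of dCas13d-ADAR to REPAIR.t1 was 0.818 by share. Unknown depth limits every number of sites, and absence from a list bounds no level.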
